A study of Homo sapiens with 24 samples.

Results

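RNA that came down with GFP-tagged RUVBL1 was compared with RNA held by beads lacking the anti-GFP fragment, in HCT116 cells given both CB-6644 and puromycin. Each kind of bead had 2 libraries, so the comparison uses 4 of the 24 libraries of the series and all 15976 genes that passed a filter on low counts, out of 28307 in the deposited table. HCT116 is a human colorectal carcinoma line. All cells compared here carry a CRISPR/Cas9 knock-in of GFP at RUVBL1. Whether the line was 1 clone was not given in the sources used here. CB-6644 was applied at 0.5 µM for 16 h and puromycin at 100 µg/mL for 30 min. The other groups of the same line, each again with 2 libraries on GFP beads and 2 on uncoupled beads, were untreated, given puromycin alone or given CB-6644 alone at those doses. A second knock-in line, with GFP on RPAP3, was untreated or given puromycin, and is used once below.

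RUVBL1 and its partner RUVBL2 form a ring-shaped AAA+ ATPase. With RPAP3 and PIH1D1 the ring makes up the R2TP co-chaperone, which works with HSP90 in assembling box C/D snoRNPs, RNA polymerases, the U5 snRNP and kinases of the PIKK family, and the ring is also a subunit of the INO80, SRCAP and TIP60 chromatin remodelling complexes. Most box C/D snoRNAs (SNORD genes) guide ribose methylation of ribosomal RNA, and most box H/ACA snoRNAs (SNORA genes) guide pseudouridylation. The scaRNAs (SCARNA genes) guide the same modifications of spliceosomal RNAs in Cajal bodies. Most snoRNAs and scaRNAs are cut from the introns of host transcripts. CB-6644 inhibits the ATPase activity of RUVBL1 and RUVBL2, and puromycin releases unfinished protein chains from ribosomes. An mRNA can be recovered with a protein through the chain that grows on its ribosomes, whereas snoRNAs are not translated.

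The 4 libraries held 17055648 and 18725906 counts on GFP beads and 27883137 and 18890783 on uncoupled beads, within the range of 9019665 to 33051512 over the 16 RUVBL1 libraries. Replicate GFP libraries correlated at r = 0.964 across genes and uncoupled ones at 0.977 (log2 scale; genes are not independent replicates). GFP replicate 1 stood apart at the positive end of the first principal component of the 16 libraries, at 72.0. GFP replicate 2 after CB-6644 alone did so too, at 110.5. The other libraries lay between -47.8 (uncoupled replicate 1 after puromycin alone) and 11.7. Uncoupled replicate 2 of untreated cells stood apart on the second component, at -89.4. Counts of calls are given with and without these libraries, and list medians after both drugs with and without GFP replicate 1 where they moved most. Epithelial markers summed to 4063 to 4442 CPM (counts scaled to the depth and TMM factor of the library) in the 4 libraries, carried by keratins 8, 18 and 19 and by EPCAM. KRT20 and VIL1 did not exceed 31 counts, and CEACAM5 and LGALS4 did not exceed 1. The 13 markers of blood, stroma, vessel and liver summed to 28.7 and 10.4 CPM on GFP beads and to 9.68 and 9.79 CPM on uncoupled beads, with PTPRC, CD3E, CD79A and DCN at 0 in all 4 and COL1A1 highest at 386 counts. Their part in the results was not tested.

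After both drugs, 89 genes were called enriched, that is, higher with the GFP beads (edgeR quasi-likelihood test, Benjamini-Hochberg adjusted p under 0.05), which is 0.557% of the genes tested. The snoRNAs and scaRNAs made up 60 of the 89: 52 box C/D snoRNAs and 8 scaRNAs. The other 29 were 28 mRNAs and SNHG1, a non-coding host transcript of box C/D snoRNAs. No SNORA gene was called. In all 89 both GFP libraries lay above both uncoupled libraries, a pattern met by 22.7% of all genes tested. No gene was called lower (edgeR; 411 genes were lower at an unadjusted p under 0.05, DESeq2 called 3 lower and limma voom 8). Without the 3 libraries that stand apart, 188 genes were called, 59 of them snoRNAs or scaRNAs and 119 mRNAs, and 8 were lower. The mRNA of the tagged protein itself was not called: RUVBL1 mRNA stood at 91.5 and 89.6 CPM on GFP beads and at 89.7 and 88.5 on the uncoupled ones (log2 ratio 0.02 ± 0.33, SE). RUVBL2 mRNA gave -0.05 ± 0.25 and RPAP3 mRNA -0.21 ± 0.43, and neither was called. These ratios are log2 values of GFP over uncoupled beads, and the SE comes from the edgeR fit of all 16 libraries.

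**Figure D1:**
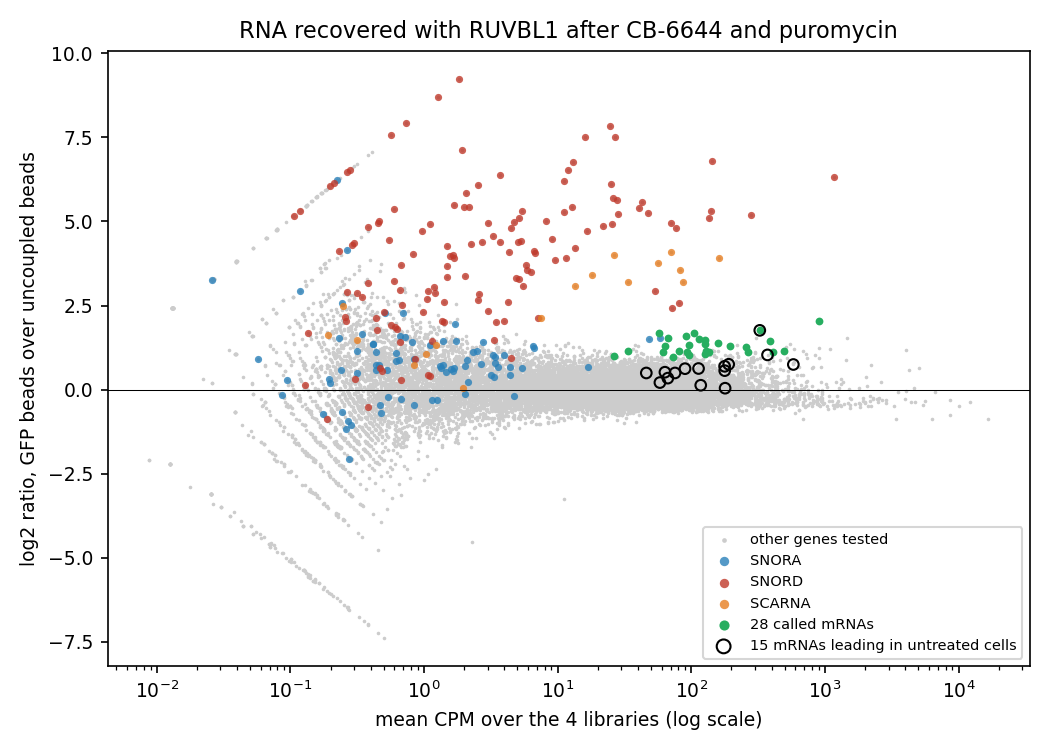
Enrichment after both drugs (log2 ratio of GFP to uncoupled beads, vertical) against the mean level over the 4 libraries (CPM, log scale), with 1 point per gene tested. SNORD genes (red) and SCARNA genes (orange) form the upper cloud, the 28 called mRNAs (green) lie between 0.97 and 2.04, and the 15 mRNAs that led in untreated cells (black rings) lie between 0.04 and 1.76.

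Box C/D snoRNAs were the largest group. Summed over all 357 SNORD genes of the table, with no filter, they took 0.739% of counts in GFP replicate 1 (95% Wilson interval 0.735 to 0.743) and 0.469% in GFP replicate 2 (0.466 to 0.472). On uncoupled beads they took 0.0164% (0.0159 to 0.0168) and 0.0235% (0.0228 to 0.0242). The GFP libraries thus held 37.1 and 23.6 times the mean share of the uncoupled libraries. These intervals cover counting error only, since PCR copies were not told apart. RNA of the lysates was not analysed here, so more of an RNA in the cells and more of it bound per RUVBL1 cannot be told apart, nor can more cells and more RNA per cell. Of the 357 genes, 134 passed the filter on low counts. A snoRNA that is high only on GFP beads could pass through those libraries alone, so the summed shares, not the tested genes, describe the class.

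Summed as a class, scaRNAs differed in the same direction by a smaller ratio. The 29 SCARNA genes together took 0.138% and 0.0837% of counts with GFP beads, and 0.00901% and 0.00931% with uncoupled beads. The GFP libraries held 15.1 and 9.14 times the uncoupled mean. Box H/ACA snoRNAs did not show this pattern. The 182 SNORA genes took 0.0625% in GFP replicate 1 but 0.00854% in GFP replicate 2, on either side of the 0.0134% and 0.0183% of the uncoupled beads. The ratios to the uncoupled mean were 3.94 and 0.538.

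**Figure D2:**
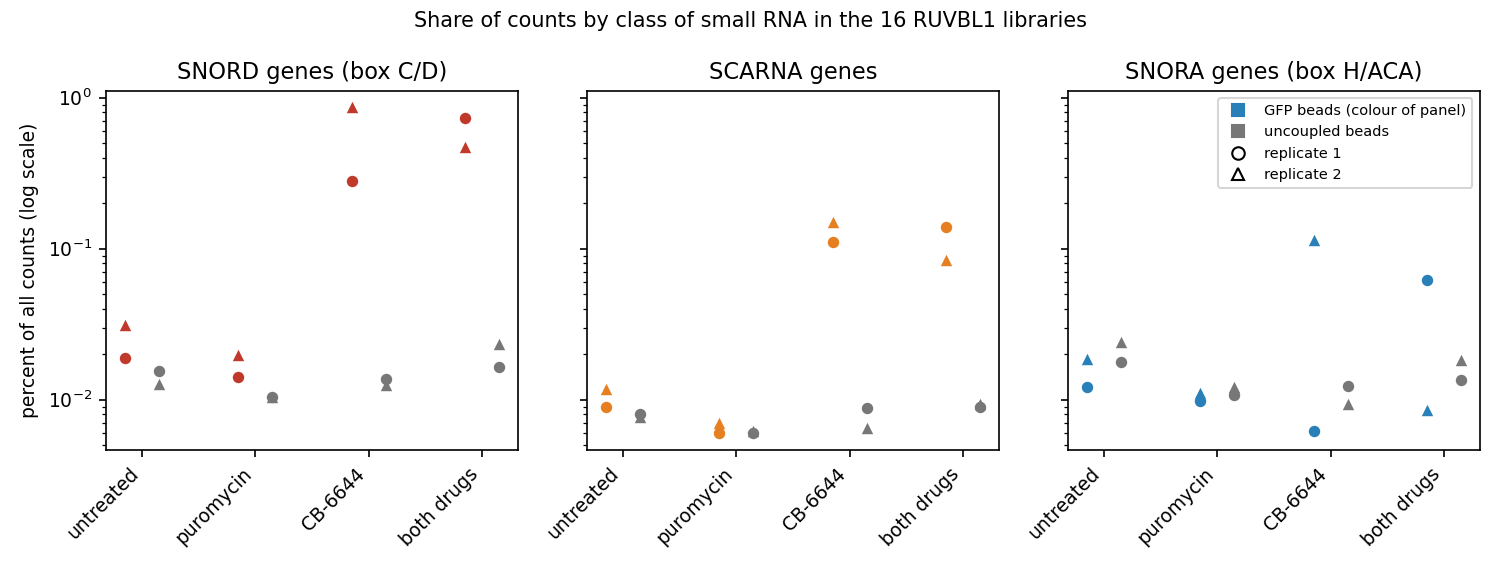
Percent of all counts (log scale) taken by SNORD, SCARNA and SNORA genes in each of the 16 RUVBL1 libraries, by treatment, with coloured points for GFP beads and grey points for uncoupled beads. SNORD and SCARNA shares are high in all 4 GFP libraries with CB-6644, whereas the SNORA share is high in 1 of the 2 libraries of each such treatment.

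Among single box C/D snoRNAs, SNORD15B, an RNA from an intron of the ribosomal protein gene RPS3 (chr11:75404421-75404566, GRCh38.p14), was at 2712 and 1933 CPM on GFP beads and 20.9 and 37.8 CPM on uncoupled beads. The log2 ratio was 6.31 ± 0.43 (SE; edgeR adjusted p = 5.03e-09). SNORD3C is a copy of U3, the box C/D RNA needed for early cleavage of the ribosomal precursor. It stood at 45.7 and 61.3 CPM against 0.388 and 0.152 CPM, a log2 ratio of 7.52 ± 0.51 (adjusted p = 5.03e-09 in edgeR). Reads of U3 copies are nearly identical and may have been divided between them, so the value cannot be assigned to this copy alone. The other tested U3 copies were not called: SNORD3A at 5.11 (adjusted p = 0.201 in edgeR) and SNORD3D at 6.14 (adjusted p = 0.547 in edgeR). In both RNAs the replicates of a bead lay close together beside the distance between beads.

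SNORD76, 1 of the snoRNAs within GAS5, reached 251 and 312 CPM against 2.01 and 3.09 CPM (log2 ratio 6.80 ± 0.76). SNORD68, within RPL13, reached 44.8 and 52.9 CPM against 0.212 and 0.203 CPM, a log2 ratio of 7.84 ± 0.98. SNORD22, within SNHG1, reached 259 and 294 CPM against 6.57 and 7.44 CPM, a log2 ratio of 5.30 ± 0.56. In each of them the lower GFP library stood far above the higher uncoupled one. SNORD50A (7.52), SNORD5 (6.78), SNORD35A (6.52), SNORD41 (6.19), SNORD46 (6.10) and SNORD26 (5.70) completed the highest log2 ratios among RNAs with a mean of at least 5 CPM.

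The 52 called SNORD genes ranged from 2.14 to 9.24 on the log2 ratio, with a median of 5.15. SNORD12C had the lowest ratio, at 14.7 and 8.47 CPM against 2.75 and 2.48 CPM (chosen after its values were seen). Of the 52, 14 had a mean below 5 CPM. SNORD88A and SNORD100 had no reads on uncoupled beads, so their fitted ratios are not meaningful. Against a floor of 3 counts per library they were at least 29.1-fold higher (63 and 76 counts on GFP beads) and at least 19.9-fold higher (31 and 65 counts). The replicates of the 60 called snoRNAs and scaRNAs did not share 1 direction: 26 were higher in GFP replicate 1 and 34 in GFP replicate 2. These 60 were chosen as called and do not describe the class. Of the SNORD genes tested, 66 of 134 were higher in GFP replicate 1, and of the SCARNA genes 14 of 17, beside 7209 of all 15976 genes. The summed shares of both classes were higher in GFP replicate 1. SNORD17, chosen after its values were seen, shows how far replicates could differ, with 814 and 281 CPM on GFP beads against 12.1 and 17.9.

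Of the scaRNAs, SCARNA28 (within TRRAP, chr7:98881697-98881890, GRCh38.p14) had the smallest p of any gene. It stood at 307 and 294 CPM on GFP beads and at 17.7 and 22.6 CPM on uncoupled beads, a log2 ratio of 3.90 ± 0.26 (edgeR adjusted p = 3.56e-09). SCARNA7, within KPNA4, followed with 104 and 106 CPM against 9.68 and 5.77 CPM, a log2 ratio of 3.75 ± 0.30. SCARNA2, spanned by no protein-coding or long non-coding RNA gene of NCBI's gene table, had 183 and 130 CPM against 20.0 and 14.0 CPM (3.20 ± 0.28). These 3 RNAs gave the firmest scaRNA values, and in each the lower GFP library was at least several times the higher uncoupled one. The others called were SCARNA10 (4.10), SCARNA17 (3.99), SCARNA12 (3.54), SCARNA5 (3.41) and SCARNA9 (2.12). Thus 8 of the 17 SCARNA genes tested were called, beside 0.557% of all genes, and GFP libraries could decide which genes passed the filter. The class was not uniform: log2 ratios of the SCARNA genes without a call ran from 0.05 (SCARNA1) to 3.20 (SCARNA21).

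**Figure D3:**
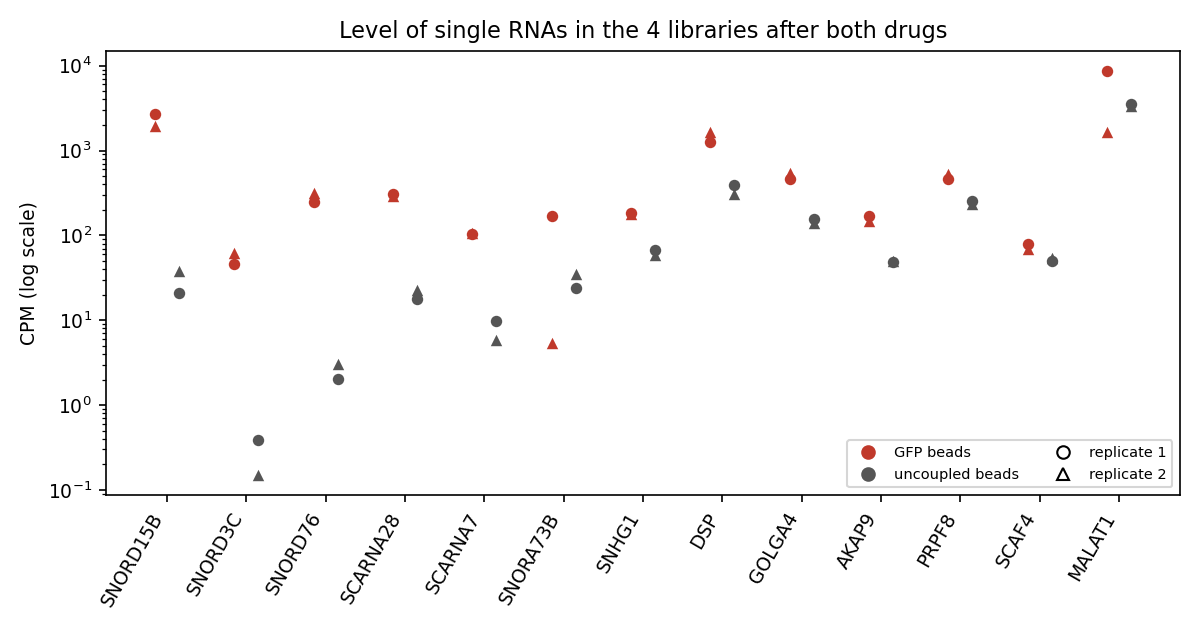
CPM (log scale) of 13 RNAs in the 4 libraries after both drugs, red for GFP beads and grey for uncoupled beads, circles for replicate 1 and triangles for replicate 2. SNORD and SCARNA points separate by bead and the mRNAs DSP, GOLGA4 and AKAP9 by a smaller distance, while for SNORA73B and MALAT1 the GFP replicates fall on opposite sides of the uncoupled beads.

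The host transcripts were not recovered in step with the snoRNAs inside them. For 53 of the 60 called snoRNAs and scaRNAs exactly 1 gene spans the locus and was tested, and these loci lie in 35 hosts. Only protein-coding and long non-coding RNA genes were searched, without regard to strand. The median log2 ratio of the 35 hosts was -0.13, their range -0.77 to 1.52, and 1 of them was called higher and 0 lower. The called host was SNHG1, at 182 and 177 CPM against 67.3 and 58.1 CPM (1.52 ± 0.23, adjusted p = 0.000997 in edgeR). All 53 small RNAs had a higher ratio than their host, by 1.41 log2 units or more. Since the 53 were chosen as called, this is a description.

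Single hosts show the same contrast. In HSPA8, the constitutive HSP70 chaperone gene, all 3 tested snoRNAs were called (log2 ratios 4.39 to 4.81) beside 0.06 for the mRNA. In GAS5, a non-coding host, 4 of 9 tested snoRNAs were called (3.86 to 6.80) and GAS5 itself gave 0.67 ± 0.26 (adjusted p = 0.43 in edgeR). SNHG1 held 5 called snoRNAs of 7 tested (3.90 to 5.70), so its own ratio of 1.52 was the exception among hosts.

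**Figure D4:**
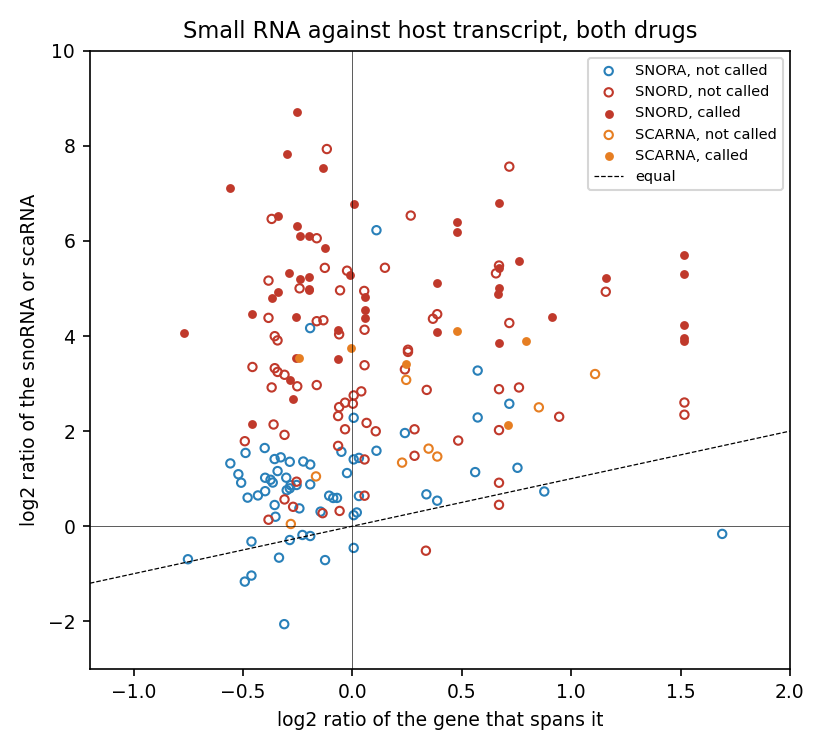
Log2 ratio of each tested snoRNA or scaRNA with 1 tested spanning gene (vertical) against that gene's own log2 ratio (horizontal), after both drugs, with filled points for called RNAs and a dashed line of equality. Hosts of called RNAs stay between -0.77 and 1.52, and all 53 filled points lie above the line.

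The high box H/ACA share of GFP replicate 1 came with high MALAT1 and NEAT1. It did not extend to the whole list of structured and nuclear non-coding RNAs. Of the 20 tested, 6 were higher in GFP replicate 1 than in replicate 2 and 14 were lower. SNORA73B, an H/ACA RNA chosen after its values were seen, was at 168 CPM in GFP replicate 1 and 5.44 in replicate 2, against 24.2 and 35.0 on uncoupled beads. MALAT1, a nuclear speckle RNA, stood at 8669 and 1676 CPM on GFP beads and at 3533 and 3305 on uncoupled beads. NEAT1, the scaffold of paraspeckles, stood at 368 and 54.7 CPM against 147 and 113. For all 3 RNAs the GFP replicates lay on opposite sides of the uncoupled libraries. Of 79 SNORA genes tested, 76 were higher in GFP replicate 1 than in replicate 2, beside 7209 of all 15976 genes. SNORA genes could pass the filter through the libraries with a high SNORA share, so this count does not describe the class. After CB-6644 alone it was GFP replicate 2 that held the high SNORA share, 0.115% beside 0.00617% in replicate 1. The SNORD share was also higher in the replicate with the higher SNORA share, 0.739% beside 0.469% after both drugs and 0.864% beside 0.280% after CB-6644 alone. In GFP replicate 2 after both drugs MALAT1, NEAT1 and the SNORA share lay below both uncoupled libraries and the SNORD share was 23.6 times their mean. The part of nuclear RNA content in the SNORD result was not tested further. Without GFP replicate 1, edgeR called 58 genes, 49 of them snoRNAs or scaRNAs and 8 of them mRNAs.

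The 28 called mRNAs were less enriched than the snoRNAs, with log2 ratios from 0.97 to 2.04 (1.96-fold to 4.11-fold) and a median of 1.28. DSP, which encodes desmoplakin of desmosomes, led at 1251 and 1635 CPM on GFP beads against 397 and 304 CPM on uncoupled beads (2.04 ± 0.32; edgeR adjusted p = 0.0011). GOLGA4, a golgin that tethers vesicles at the trans-Golgi, had 467 and 540 CPM against 156 and 141 CPM (1.76 ± 0.35, adjusted p = 0.0109 in edgeR). AKAP9, a scaffold of the centrosome and Golgi, had 171 and 149 CPM against 49.0 and 49.9 CPM (1.70 ± 0.25, edgeR adjusted p = 0.00059). In these 3 mRNAs the gap between the beads was larger than the gap between replicates. The mRNA calls rest on all 4 libraries: leaving out GFP replicate 1, GFP replicate 2, uncoupled replicate 1 or uncoupled replicate 2 gave 8, 14, 2 and 2 called mRNAs, beside 49, 52, 18 and 22 snoRNAs and scaRNAs.

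Golgins other than GOLGA4 were GOLGB1 (200 and 175 CPM against 68.9 and 65.6; log2 ratio 1.48) and TRIP11 (85.3 and 83.7 CPM against 41.7 and 36.0; 2.17-fold), so 3 of 11 listed golgins were called. The mitotic kinesin CENPE had 104 and 94.4 CPM against 31.6 and 37.1 CPM (1.53). BDP1, a subunit of the polymerase III factor TFIIIB, had 300 and 256 CPM against 118 and 109 (1.29), and LAMC1, a laminin chain, 160 and 181 CPM against 80.5 and 81.5 (1.07). All 5 separated by bead with a gap larger than that between replicates.

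The remaining mRNAs were named after their values were seen. MAP1B (1.69), a microtubule-associated protein, MYO5A (1.60), an unconventional myosin, RAD50 (1.51), a subunit of the MRE11 repair complex, and TPR (1.44), of the nuclear pore basket, came next. ATRX (1.38), CHD4 (1.14) and CHD3 (1.11) encode chromatin remodellers. MIA3 (1.34) acts in collagen export, PCM1 (1.27) in centriolar satellites, KTN1 is a kinesin-binding membrane protein, and CLIP1 (1.04) a microtubule plus-end protein. BOD1L1, ZNF721, NBPF1, BLTP1, CIT, EIF4G3, CDC42BPB, LRP4 and NBAS lay between 0.97 and 1.34. The genes of the 28 mRNAs span a median of 103.2 kb (27.96 to 782.4 kb), beside 31.1 kb over the 13575 protein-coding genes tested. Gene span is mostly intron and is not transcript length, which was not used here.

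The same 28 mRNAs can be followed in libraries that played no part in choosing them. With GFP-tagged RPAP3 after puromycin, fitted on the 8 RPAP3 libraries, 70 of 15202 genes were called higher (0.46%). Of the 28 mRNAs 17 were among them, all 28 had a log2 ratio above 0, the median was 1.15, and in 27 both GFP libraries lay above both uncoupled ones, as in 14.3% of all genes tested there. DSP was at 641 and 985 CPM on GFP beads and at 143 and 125 on uncoupled beads there (CPM by total counts; log2 ratio 2.65 ± 0.21), and GOLGA4 at 290 and 414 CPM against 92.3 and 106 (1.88 ± 0.18). RAD50 was at 125 and 156 CPM against 59.0 and 64.0 (1.24 ± 0.13). LRP4, at 6.49 and 8.78 CPM against 6.36 and 6.61, was the mRNA whose libraries overlapped. The RPAP3 cells were not given CB-6644, so line, bait and drug differ together.

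No snoRNA was called with RPAP3 in that setting. Of the 60 snoRNAs and scaRNAs called with RUVBL1 after both drugs, 43 were tested with RPAP3 after puromycin, and their median log2 ratio was -0.20. Of these 43, 0 were called, beside 0.46% of all genes, a share at which a count of 0 says little. The RPAP3 cells were not given CB-6644. With RUVBL1 after puromycin alone, the SNORD share of the GFP libraries was 1.35 and 1.90 times the uncoupled mean. SNORD15B was at 2.65 and 1.73 CPM on RPAP3 GFP beads and at 3.03 and 7.52 CPM on uncoupled beads.

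mRNAs of R2TP subunits, known clients and related factors were mostly near 0 after both drugs. None of 14 tested mRNAs of R2TP and prefoldin-like subunits was called (median log2 ratio -0.14), nor of 31 for the INO80, SRCAP and TIP60 complexes (-0.12), 36 for RNA polymerase subunits and assembly factors (-0.10), 18 for the U5 and U4/U6 snRNPs (0.23), 15 for snoRNP proteins and their assembly factors (-0.09) or 9 for PIKK kinases and the TTT co-chaperone (0.64). The median over all genes tested was 0.00. In 7 of the 9 PIKK and TTT mRNAs both GFP libraries lay above both uncoupled ones, beside 22.7% of all genes, and in 0 both lay below. Ribosomal protein mRNAs had a median of -0.37 (0 of 83 called) and respiratory chain mRNAs -0.36 (0 of 75). GFP replicate 1, which stands apart, lay below replicate 2 in 82 of the 83 and 72 of the 75, beside 8620 of all 15976 genes. Without it the medians were -0.09 and -0.15, and that of the PIKK list 0.23. In 42 of the 83 ribosomal protein mRNAs both GFP libraries lay below both uncoupled libraries, beside 24.0% of all genes. Taken singly, replicate 1 did so in 81 and replicate 2 in 43, beside 6594 and 6031 of all 15976 genes. In lists of long proteins the medians were above 0: 0.80 for 44 very long cytosolic proteins, with AKAP9 called, and 0.60 for 45 large secretory-pathway proteins, with LAMC1 called. Without GFP replicate 1 these medians were 0.65 and 0.45.

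The 15 mRNAs that led the enrichment in untreated cells were followed as a set chosen from earlier results of these data. After both drugs 1 of the 15 was called, GOLGA4, beside 0.557% of all genes, and the median was 0.56. All 15 had a ratio above 0 (14 without GFP replicate 1), and in 12 both GFP libraries lay above both uncoupled ones, beside 22.7% of all genes. PRPF8, the U5 snRNP scaffold, was at 468 and 532 CPM against 252 and 237 (1.03 ± 0.36, adjusted p = 0.36 in edgeR). EP400, the TIP60 complex ATPase, was at 268 and 211 CPM against 157 and 127 (0.75 ± 0.35). POLR2A, the largest subunit of RNA polymerase II, was at 752 and 704 CPM against 438 and 430 (0.75 ± 0.44). The libraries of these 3 separated by bead, but none passed the adjusted threshold. SRCAP (0.69), EFTUD2 (0.63), POLR1A (0.62), SMG1 (0.56), SCAF4 (0.52), POLR3A and INO80 (0.50 each), BRD8 (0.34), PCF11 (0.21), POLR2B (0.13) and CDKN1A (0.04) also gave no call.

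Untreated cells differ from this. The change in enrichment, both drugs minus untreated, was called higher for 18 genes (0.113%) and lower for 16 (0.1%), by the interaction term of the edgeR fit. PRPF8 had been at 22109 and 13858 CPM on GFP beads of untreated cells against 286 and 126 on uncoupled beads, and its log2 ratio fell by 5.41 ± 0.54 (adjusted p = 4.02e-06 in edgeR). EP400 fell by 5.32 ± 0.53, SRCAP by 4.17 ± 0.50, POLR2A by 3.72 ± 0.64, PCF11 by 3.55 ± 0.48 and POLR2B by 3.44 ± 0.44, all called. BRD8 (-2.85) and GOLGA4 (-2.50) make 8 called of the 15 leading mRNAs, and all 15 changes were below 0. The 15 were chosen for their ratio in untreated cells, and those libraries enter the difference, so its direction over the set is no finding. GOLGA4 was thus both enriched after both drugs and less so than in untreated cells, where it stood at 3454 and 2692 CPM on GFP beads.

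The 18 that rose against untreated cells were 11 snoRNAs and scaRNAs and 7 mRNAs. SNORD15B rose by 5.16 ± 0.52, from 14.1 and 17.0 CPM on untreated GFP beads. SNORD89 rose by 5.58 ± 0.82, SNORD104 by 4.91 ± 0.80, SNORD22 by 4.45 ± 0.75 and SNORD3C by 4.22 ± 0.76. The mRNAs were AKAP9 (2.34), MAP1B (2.34), GOLGB1 (2.21), DSP (2.14), MIA3 (2.07), CENPE (1.91) and BDP1 (1.80). These mRNAs had ratios between -0.74 and -0.10 in untreated cells, and none was called higher there. In untreated cells 4 of the 60 snoRNAs and scaRNAs and 1 of the 28 mRNAs, GOLGA4, were called higher, beside 0.914% of all genes, and 0 of either were called lower (0.0188% of genes). All 18 had been called after both drugs, and those libraries enter the difference too. Leaving out 1 of the 4 libraries given both drugs gave 14 to 20 calls in place of 34, leaving out GFP replicate 1 of untreated cells gave 14, and leaving out uncoupled replicate 2 of untreated cells gave 112.

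**Figure D5:**
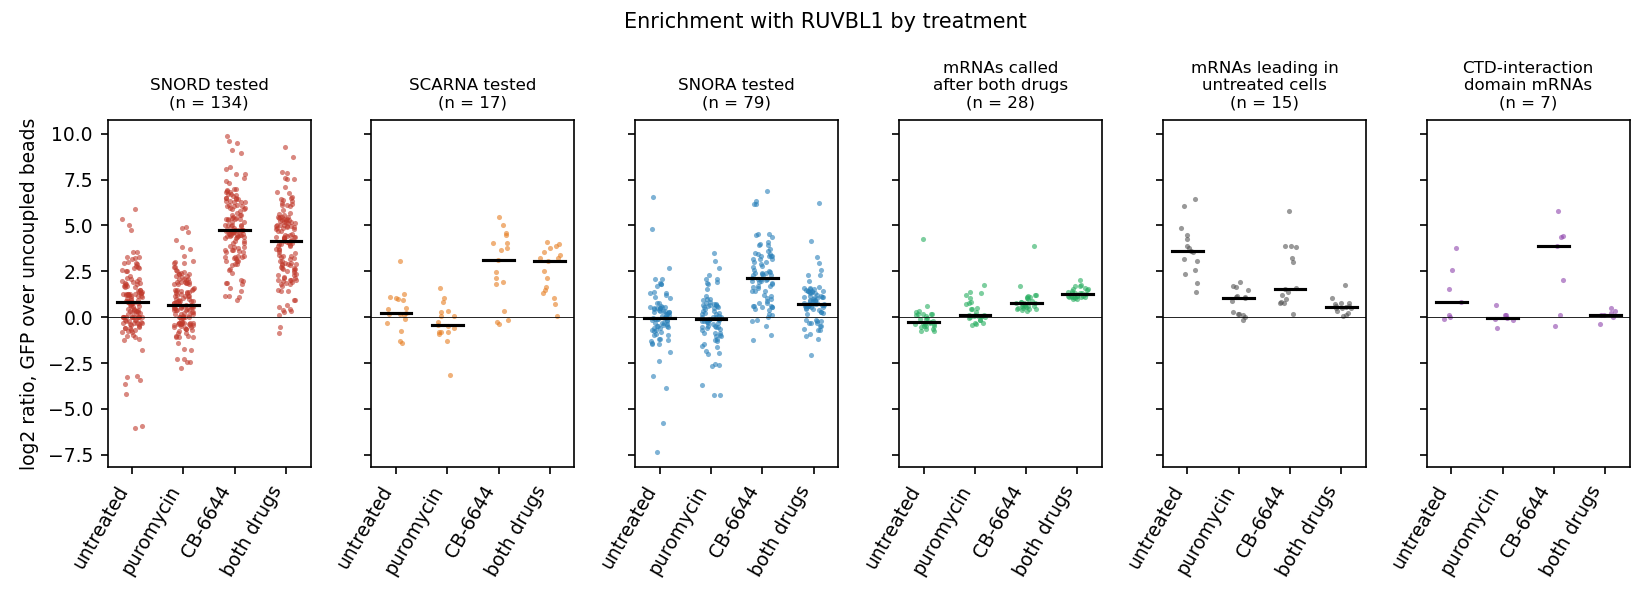
Log2 ratio of GFP to uncoupled beads in the 4 treatments of the RUVBL1 line, with 1 point per gene and a bar at the median, for 6 sets of genes. The snoRNA and scaRNA panels show only genes that passed the filter on low counts, which the GFP libraries with CB-6644 could decide, and the leading mRNAs were chosen in untreated cells and the called mRNAs after both drugs, so the height of those groups is set by the choice. The domain set, chosen with earlier results of these data known, has medians of 3.89 after CB-6644 and 0.14 after both drugs (-0.03 without GFP replicate 1).

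No snoRNA or scaRNA was called as different from CB-6644 alone. Of the 60 called snoRNAs and scaRNAs 58 were also called after CB-6644 alone, where 1.87% of all genes were called higher; SNORD100 and SNORD102 were the exceptions. SNORD15B was at 1016 and 1674 CPM on GFP beads after CB-6644 alone and its enrichment differed by 0.55 ± 0.48 log2 units. SCARNA28 differed by 0.80 ± 0.33 and SCARNA7 by -0.30 ± 0.38. The median difference over the 60, which were chosen as called after both drugs, was -0.71, with 43 below 0, and 0 called in either direction. With SEs of 0.33 and more per RNA, a difference of the size of that median was not detectable at this replication. The SNORD share was 0.280% and 0.864% after CB-6644 alone, a range that contains the 0.739% and 0.469% after both drugs.

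What did differ from CB-6644 alone was a small set of mRNAs, all lower after both drugs: 8 called lower (0.0501%) and 0 higher (edgeR; at an unadjusted p under 0.05, 187 were lower and 142 higher; DESeq2 also called 0 higher). SCAF4, whose protein binds the C-terminal domain (CTD) of RNA polymerase II through a CTD-interaction domain, was at 3510 and 1477 CPM on GFP beads after CB-6644 alone and at 80.0 and 69.6 CPM after both drugs. Its enrichment fell by 5.24 ± 0.49 (adjusted p = 6.99e-06 in edgeR). SCAF8, its paralog, went from 1376 and 580 CPM to 45.7 and 39.2 CPM, and fell by 4.28 ± 0.44. CHERP went from 2947 and 1439 CPM to 156 and 157 CPM, and fell by 4.09 ± 0.44. None of the 3 was called as enriched after both drugs, with log2 ratios of 0.52, 0.10 and 0.35.

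PCF11, a cleavage and termination factor with the same kind of domain, went from 1117 and 808 CPM to 72.3 and 52.7 CPM and fell by 3.68 ± 0.48. PRPF8 went from 3519 and 1968 CPM to 468 and 532 CPM and fell by 2.79 ± 0.51 (edgeR adjusted p = 0.0329). Outside the rule for named genes, WASHC2C fell by 2.41 ± 0.36 and WASHC2A by 2.36 ± 0.36; these are near-identical copies of a WASH complex subunit. RPRD2, which has a CTD-interaction domain, fell by 1.89 ± 0.35. Of the 7 listed mRNAs with that domain 5 were called lower, while RPRD1A (0.14) and RPRD1B (-0.10) were not. The list was chosen with earlier results of these data known, so this count is a description. SCAF4 and PCF11 are also on the list of 15 leading mRNAs. In that list SRCAP (-2.53 ± 0.49, edgeR adjusted p = 0.0594) and GOLGA4 (-2.14 ± 0.48, adjusted p = 0.241 in edgeR) had large differences without a call. The number called here depends on 1 library: without GFP replicate 1 after CB-6644, 124 genes were called, 76 of them higher, and leaving out GFP replicate 2 there gave 14, all lower.

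None of the 28 mRNAs enriched after both drugs was called higher or lower than after CB-6644 alone. After CB-6644 alone 8 of the 28 were called higher, beside 1.87% of all genes. All 28 had ratios above 0 there (median 0.79), beside 8174 of all 15976 genes.

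Against puromycin alone, the difference was called higher for 12 genes (0.0751%) and lower for 5 (0.0313%). At an unadjusted p under 0.05, 337 genes were higher and 1022 lower. All 12 were snoRNAs or scaRNAs. SNORD35A differed by 6.07 ± 1.10, SNORD104 by 5.83 ± 0.80, SNORD89 by 5.66 ± 0.73, SNORD15B by 5.32 ± 0.52 and SNORD3C by 4.81 ± 0.72. SCARNA28 differed by 4.71 ± 0.35, the smallest p of this comparison (adjusted p = 3.33e-08 in edgeR). After puromycin alone SNORD15B was at 9.42 and 13.4 CPM on GFP beads, beside 2712 and 1933 after both drugs. Of the 60 snoRNAs and scaRNAs chosen as called after both drugs, 6 were called higher after puromycin alone (9.95% of all genes were). SCARNA28 was called lower there, at -0.80 ± 0.24, as were 3.82% of genes.

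The 5 mRNAs lower than after puromycin alone were TMC6, CDKN1A, MMS19, PI4K2A and RTL6. TMC6, a transmembrane channel-like protein, was at 369 and 637 CPM on GFP beads after puromycin and at 133 and 168 CPM after both drugs, and its enrichment fell by 2.23 ± 0.40. CDKN1A, the cell cycle inhibitor p21, was at 441 and 766 CPM and then at 169 and 195 CPM, level with its uncoupled beads, and fell by 1.86 ± 0.36. MMS19, of cytosolic iron-sulfur assembly, fell by 1.69 ± 0.34, the lipid kinase PI4K2A by 1.62 ± 0.30 and RTL6 by 1.44 ± 0.29. In all 5 the ratio after both drugs lay between -0.10 and 0.58. Without any 1 of the 4 libraries given both drugs, none of the 5 was called lower, and 6 to 10 genes were called higher. Leaving out GFP replicate 2, uncoupled replicate 1 or uncoupled replicate 2 after puromycin alone gave 9, 7 and 8 calls, all higher, and leaving out the 3 libraries that stand apart gave 647. After puromycin alone 7 of the 28 called mRNAs were called higher, beside 9.95% of all genes. The difference from puromycin alone was called for 0 of the 28. GOLGA4 was the exception among the 28, of which 27 had a higher ratio after both drugs than in untreated cells, beside 8191 of all 15976 genes. The 28 were chosen as called after both drugs, and those libraries enter the difference, so its direction over the set is no finding. The ratio of GOLGA4 was 0.01 after puromycin alone, 1.76 after both drugs, 3.90 after CB-6644 alone and 4.26 in untreated cells.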

How the data were processed

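RNA immunoprecipitation sequencing of 24 libraries is described by 1 table of read counts per gene that the authors deposited, whole numbers without normalization. The submitters' processing notes list TopHat2 2.1.1, featureCounts 2.0.3, bcl2fastq 2.20.0.422, MultiQC 1.12 and FastQC 0.11.9, and build hg38. Libraries came from a stranded SMART-seq kit (labels' protocols). How strand and multiply placed reads were counted, and with which annotation, was not given in the sources used here, so reads of near-identical, overlapping or antisense genes may be divided or merged. Biotypes and positions came from NCBI's gene table for GRCh38.p14, which held 27757 of the 27790 IDs; 517 genes had no ID. Groups came from the labels. The labels do not say whether replicates were separate cultures, so p-values measure the spread between libraries, which may be technical.

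The 16 RUVBL1 libraries were fitted together with edgeR 4.0.16 in R 4.3.3 (filterByExpr, TMM, robust quasi-likelihood, no block; biological coefficient of variation 0.263), with Benjamini-Hochberg adjustment over all genes and calls at an adjusted p under 0.05. The script was tested on simulated counts. Differences between treatments are interaction terms. The SE is derived from the F statistic, and CPM are scaled by TMM. Members, lists and tests were chosen with earlier results of these data known. Named genes were RUVBL1, RUVBL2, RPAP3, the 15 leading mRNAs, the 10 largest called changes in each direction with a mean of at least 5 CPM and non-overlapping libraries (5 for a difference), and up to 4 called members of each of 35 lists. Each list was described by its counts and median, without a set test. Replicate numbers did not pair the samples: deviations of same-numbered libraries on the 2 beads after both drugs correlated at -0.0144. Alternatives were other scaling (upper quartile, total counts), filters, DESeq2 1.42.0, limma 3.58.1 voom with sample weights, other sets of libraries, a replicate block, leaving out each library and, chosen after seeing the data, leaving out the 3 libraries that stand apart.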

Additional observations from a re-analysis of the deposited data

Results flagged for a closer look

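Enrichment after both drugs differed from that after another treatment, by the interaction term of the edgeR fit, for 17 genes against puromycin alone, 8 against CB-6644 alone and 34 against untreated cells. The values are log2 differences of GFP-to-uncoupled ratios.

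Against puromycin alone the snoRNAs were higher: SNORD35A by 6.07, SNORD104 by 5.83, SNORD89 by 5.66, SNORD15B by 5.32 and SNORD3C by 4.81. The mRNAs were lower: TMC6 at -2.23, CDKN1A at -1.86, MMS19 at -1.69, PI4K2A at -1.62 and RTL6 at -1.44.

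Against CB-6644 alone the mRNAs were SCAF4 at -5.24, SCAF8 at -4.28, CHERP at -4.09, PCF11 at -3.68 and PRPF8 at -2.79.

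Against untreated cells PRPF8 was at -5.41, EP400 at -5.32, SRCAP at -4.17, POLR2A at -3.72 and PCF11 at -3.55. SNORD89 was at 5.58, SNORD15B at 5.16, SNORD104 at 4.91, SNORD22 at 4.45 and SNORD3C at 4.22.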

How the results depend on the processing

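Counts of called genes were within 1.5 times the reported 89, 17, 8 and 34 (both drugs; minus puromycin; minus CB-6644; minus untreated) under upper-quartile scaling, total-count scaling and the stricter filter. Without a filter they were 223, 145, 16 and 160. The fit of all 24 libraries gave 166, 86, 13 and 91, DESeq2 208, 120, 14 and 141, and the libraries of the groups compared alone 333, 382, 4 and 55. limma voom gave 336 and 438 for the first pair. Without the 3 libraries that stand apart they were 188, 647, 14 and 457. A replicate block gave 131, 27, 11 and 68, although the numbers do not pair the samples. Leaving out 1 library at a time gave 21 to 67, 6 to 20, 5 to 124 and 14 to 112; the lone library is then assumed to vary like the other groups. The 21 and 24 came without uncoupled replicates 1 and 2, the 124 without GFP replicate 1 after CB-6644, and the 112 without uncoupled replicate 2 of untreated cells. Of the 89, snoRNAs and scaRNAs numbered 60, and under DESeq2, all 24 libraries, voom, the 4 libraries alone, the block and without the libraries apart they numbered 81, 63, 91, 70, 64 and 59; mRNAs numbered 123, 99, 236, 254, 64 and 119 there. Values near 0 changed sign when 1 library was left out, with ranges of -0.0058 to 0.028 for RUVBL1, -0.19 to 0.048 for RUVBL2, -0.049 to 0.41 for PCF11 and -0.074 to 0.13 for CDKN1A. Without the libraries that stand apart, RUVBL1 was at -0.0058, RUVBL2 at 0.048 and PCF11 at -0.049. Total-count scaling moved the median of all genes to -0.20 for the difference from CB-6644 alone. With 2 libraries a group, differences such as those of the snoRNAs between CB-6644 and both drugs were not detectable.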
